A study of Mus musculus with 5 samples.

Results

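Haematopoietic stem cells are held in their state by a small circuit of transcriptional regulators, and 10 genes of that circuit are described here: the heptad Gata2, Runx1, Erg, Fli1, Tal1, Lmo2 and Lyl1, and the further regulators Mecom, Hlf and Myb. They were selected by gene symbol from the deposited RNA-seq table, which lists 11352 genes, and all 10 of 10 named symbols were found. The RNA came from mouse haematopoietic stem and progenitor cells (HSPCs) isolated by flow cytometry as cells without lineage markers or CD135 that carried both KIT and SCA1. There were 3 libraries of Cux1-low;NrasG12D cells, which carry a knockdown of the homeodomain factor gene Cux1 together with the oncogenic G12D allele of the small GTPase gene Nras, and 2 libraries of Cux1-low cells, which carry the knockdown alone. Mice of both groups had been given pI:C, a synthetic RNA that acts as an interferon inducer, together with doxycycline over 4 weeks. Strain, sex, age, the construct behind the knockdown and the driver of the Nras allele were not stated in the labels. Nor did they tie libraries to individual animals, so p-values cover no more than the spread between these libraries, part of it possibly technical. Samples with normal Cux1 were not analysed here.

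The heptad proteins bind together at many enhancers of blood stem cells. GATA2 is a zinc finger factor, RUNX1 binds DNA with its partner CBFB, ERG and FLI1 are ETS factors, TAL1 and LYL1 are basic helix-loop-helix proteins that pair with E proteins, and LMO2 is a bridging protein without DNA binding of its own that joins TAL1 to LDB1. MECOM (also called EVI1) and HLF, a PAR-type leucine zipper factor, are known for expression in the most immature, long-lived stem cells, and MYB is required across definitive blood formation. Several of these genes, among them Gata2, Erg, Fli1, Tal1 and Lmo2, are also known to be expressed by endothelial cells, megakaryocytes or mast cells. In RNA from bulk cells, fewer cells of a type and less RNA per cell cannot be told apart.

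Each library had 1 value per gene, called normalized CPM here: reads scaled to library size by the authors. The libraries held 16489711 to 20262498 reads over the listed genes, and 223 to 14903 reads stood behind a single value of these 10 genes. Of the mouse genes in the table, Cux1 stood at 311, 279 and 307 normalized CPM in Cux1-low;NrasG12D libraries 1 to 3, against 306 and 281 in Cux1-low libraries 1 and 2. Nras was at 126, 124 and 113, against 144 and 115. Both groups carry the knockdown, and Nras mRNA of both alleles is counted together, so these values check neither label. Library 3 of Cux1-low;NrasG12D stood apart from libraries 1 and 2: with all 5 libraries 128 of 11352 genes passed the test, and without library 3 there were 4243. The tests of the 10 genes and the counts of the gene lists are therefore given with and without that library. Library 3 was singled out on these same values. The p-values without it therefore describe the remaining libraries and are no independent support.

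Promoters of these genes are shown first for those with the most extreme differences, Mecom and Hlf at the low end and Tal1 at the high end, with the motifs that heptad proteins are known to bind. The sequences are RefSeq's for build GRCm38.p6, from 250 bases before to 50 bases after a transcript start. A promoter was found for 8 of the 10 genes (14 promoters in all), with none for Fli1 and Lmo2. Capitals mark motifs found on either strand, and no matches overlap in these sequences. The letters searched were AGATAA for GATA factors. For ETS factors they were CGGAAG. For RUNX factors they were TGTGGT. For helix-loop-helix factors the E-box letters CAGCTG were searched. A further E-box, CAGATG, was searched as well. Mecom has an upstream start at chr3:30509710-30510009 and an internal start at chr3:30013155-30013454, both on the minus strand. Hlf starts at chr11:90390868-90391167 on the minus strand, and the upstream Tal1 start is at chr4:115056176-115056475 on the plus strand.
Mecom, upstream start: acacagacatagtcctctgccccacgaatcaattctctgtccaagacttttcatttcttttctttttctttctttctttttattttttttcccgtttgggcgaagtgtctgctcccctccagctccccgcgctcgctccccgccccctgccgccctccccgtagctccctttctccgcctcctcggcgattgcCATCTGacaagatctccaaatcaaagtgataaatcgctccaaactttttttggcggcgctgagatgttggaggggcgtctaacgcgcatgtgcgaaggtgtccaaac
Mecom, internal start: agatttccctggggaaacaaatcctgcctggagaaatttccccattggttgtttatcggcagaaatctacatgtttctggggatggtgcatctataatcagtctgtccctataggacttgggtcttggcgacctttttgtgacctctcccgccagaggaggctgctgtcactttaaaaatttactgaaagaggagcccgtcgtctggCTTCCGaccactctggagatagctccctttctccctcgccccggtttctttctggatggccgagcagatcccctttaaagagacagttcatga
Hlf: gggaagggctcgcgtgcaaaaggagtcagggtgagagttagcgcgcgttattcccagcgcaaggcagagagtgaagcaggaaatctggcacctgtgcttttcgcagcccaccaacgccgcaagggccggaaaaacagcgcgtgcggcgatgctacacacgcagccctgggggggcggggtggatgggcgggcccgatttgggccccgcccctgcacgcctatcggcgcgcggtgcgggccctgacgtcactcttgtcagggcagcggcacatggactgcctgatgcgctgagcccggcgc
Tal1, upstream start: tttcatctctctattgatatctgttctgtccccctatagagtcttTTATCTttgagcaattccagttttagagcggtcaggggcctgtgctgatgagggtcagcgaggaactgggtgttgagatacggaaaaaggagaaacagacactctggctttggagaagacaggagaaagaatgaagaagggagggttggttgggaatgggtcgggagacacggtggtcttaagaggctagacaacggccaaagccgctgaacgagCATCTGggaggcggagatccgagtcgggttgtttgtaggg
The upstream Mecom promoter held 1 copy of the second E-box, read as CATCTG on the printed strand, and the internal one held 1 ETS motif. The upstream Tal1 promoter held 1 GATA motif and 1 copy of the second E-box, both on the opposite strand. A second Tal1 promoter, at chr4:115057561-115057860 and not shown, held none of the 5 motifs. The Hlf promoter also held none of them. Over all 32851 RefSeq promoters of this length, 11.2% held the GATA motif, 16.9% the ETS motif, 16.8% the RUNX motif, 16.3% the first E-box and 17.2% the second. The Hlf promoter was rich in CpG, with 30 CpG dinucleotides in 300 bases, while the Mecom promoters had 19 and 9 and the upstream Tal1 promoter had 11, against a median of 7 over all promoters. A match describes these letters and is not evidence of binding.

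Across the 10 genes, 9 had a lower mean in Cux1-low;NrasG12D than in Cux1-low libraries, and Tal1 alone had a higher one. Mecom and Hlf stood lowest, at 30.7% and 37.2% of their Cux1-low means, followed by Fli1 at 55.0% and Erg at 62.9%, while Runx1 and Lyl1 were at 87.7% and 89.1%. No gene of the 10 passed limma with Benjamini-Hochberg adjustment over all genes (adjusted p under 0.05), where 1.13% of all genes passed, 0.872% as lower and 0.255% as higher. At an unadjusted p under 0.05, 6 of the 10 passed, all lower, against 31.4% of all genes in either direction and 16.5% lower. Mecom, Fli1 and Hlf, 3 of the 10, passed as lower at the same adjusted threshold in the authors' deposited table, where 16.1% of all genes passed, 9.14% as lower and 6.97% as higher. Without Cux1-low;NrasG12D library 3, 7 of the 10 fell and 0 rose, against 19.4% of all genes lower, 18.0% higher and 37.4% in either direction. The median log2 fold change of the 10 genes was -0.43, against -0.00297 over all genes, and -0.60 without library 3.

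**Figure D1:**
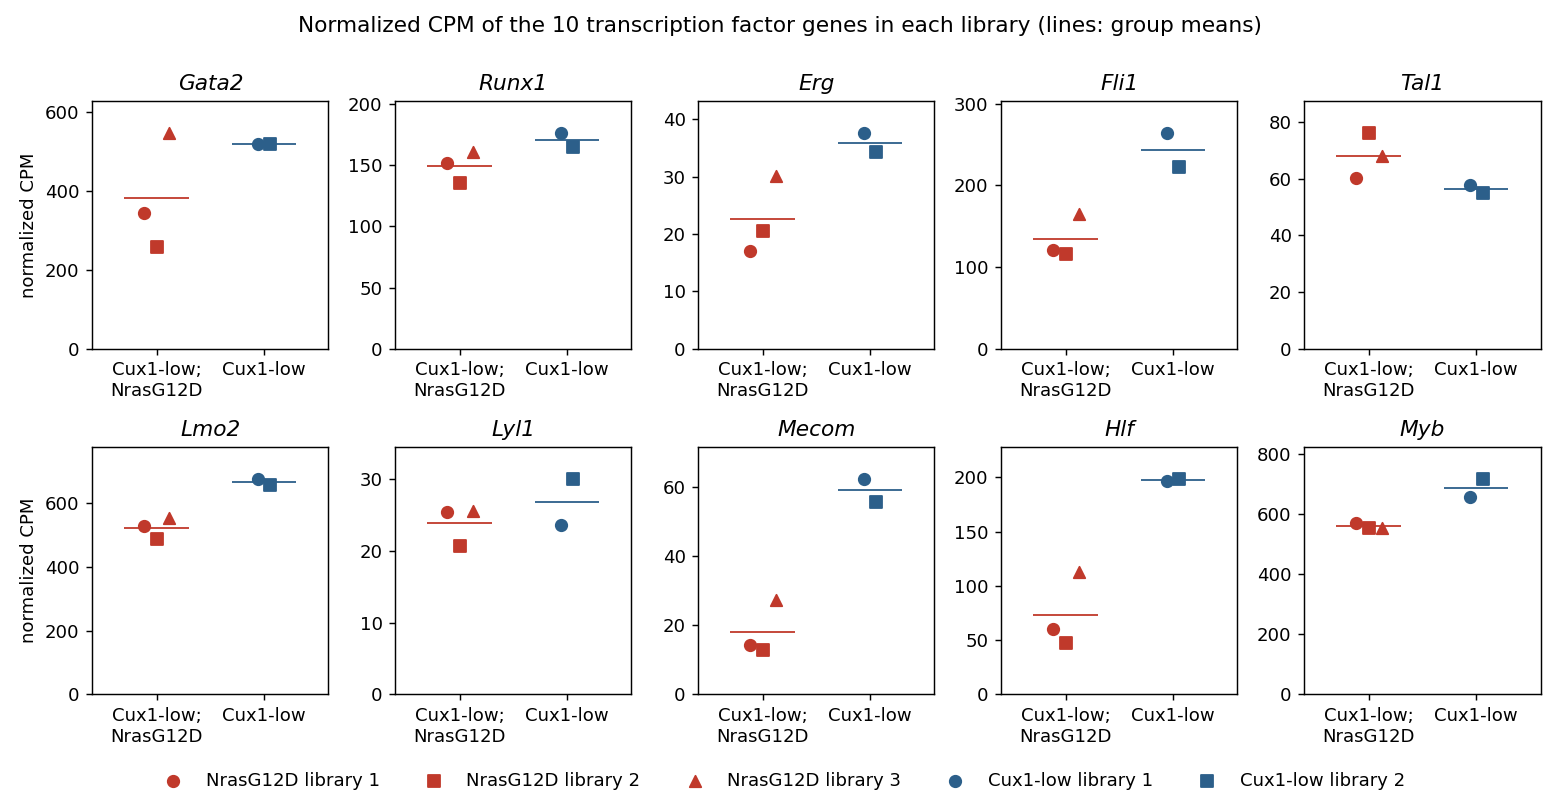
Each panel plots 1 gene, with normalized CPM from 0 on the y axis, the 3 Cux1-low;NrasG12D libraries on the left and the 2 Cux1-low libraries on the right, and a line at each group mean. Groups do not overlap for 8 of the genes (7 lower, 1 higher in Cux1-low;NrasG12D), and library 3, the triangle, lies above the 2 other Cux1-low;NrasG12D libraries for Mecom, Hlf, Fli1, Erg and Gata2 and, by less, for Lmo2, Runx1 and Lyl1.

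The groups did not overlap for 8 of the 10 genes, which is 7 lower and 1 higher. Over all genes the groups did not overlap for 53.5%, with 27.0% lower and 26.5% higher, so separation of these 5 libraries is common in the table.

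Mecom, at chromosome 3, 29951296 to 30548008 on the minus strand (ENSMUSG00000027684.16, GENCODE M21 on mm10), had the largest difference. It stood at 14.2, 12.7 and 27.4 normalized CPM in Cux1-low;NrasG12D libraries 1, 2 and 3, against 62.4 and 55.7 in the Cux1-low libraries. All 3 Cux1-low;NrasG12D values lay below both Cux1-low values, and library 3 was at about the level midway on the log2 scale. The means were 18.1 ± 8.08 (SD, n = 3) and 59.1 ± 4.71 (SD, n = 2), and the log2 fold change was -1.73 (SE 0.31, 95% interval -2.46 to -0.996, limma adjusted p = 0.0517). This was the 77th lowest log2 fold change of 11352. Without library 3 Mecom fell, with a log2 fold change of -2.05 (limma adjusted p = 0.000929), and it also passed when every library was rescaled to the same total (limma adjusted p = 0.0490). In the authors' deposited table its log2 fold change was -1.71 with an adjusted p of 4.95e-05. Its exons share 81 bases with those of an antisense gene, Mecomos, and no source used here says whether reads were counted by strand, so reads of the pair could not be separated.

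Hlf (chromosome 11, 90336536 to 90390895, minus strand, ENSMUSG00000003949.16) had the second largest difference. It stood at 60.1, 47.5 and 113 normalized CPM in Cux1-low;NrasG12D libraries 1, 2 and 3, against 196 and 199 in the Cux1-low libraries. The Cux1-low values were nearly equal, and all Cux1-low;NrasG12D values were below them, with library 3 the nearest. The log2 fold change was -1.51 (SE 0.33, 95% interval -2.29 to -0.73, limma adjusted p = 0.0659), the 134th lowest of all genes. Without library 3 Hlf fell by 1.87 on the log2 scale (limma adjusted p = 0.000929), and the authors' deposited table gives -1.43 with an adjusted p of 0.00123. Mecom and Hlf thus had the same order of libraries, with library 2 lowest, then 1, then 3, then both Cux1-low libraries. Fli1, Lmo2 and Runx1 had this order as well.

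The ETS factor genes followed. Fli1 (chromosome 9, 32422204 to 32542861, minus strand) stood at 121, 116 and 165 normalized CPM in Cux1-low;NrasG12D libraries 1, 2 and 3, against 264 and 223 in Cux1-low libraries. Every Cux1-low;NrasG12D value was below every Cux1-low value, by more than the spread within either group. Its log2 fold change was -0.87 (SE 0.17, 95% interval -1.28 to -0.46, limma adjusted p = 0.0581). It fell by 1.03 on the log2 scale without library 3 (limma adjusted p = 0.00208), and the authors' deposited table gives -0.86 with an adjusted p of 0.000551. Erg, the other ETS gene (chromosome 16, 95359169 to 95586593, minus strand), was much less abundant, at 17.1, 20.5 and 30.1 normalized CPM against 37.6 and 34.2. Library 3 lay just below the lower Cux1-low library, so the groups were separated by a narrow gap. The log2 fold change was -0.68 (SE 0.24, 95% interval -1.25 to -0.12, limma adjusted p = 0.117), and Erg fell by 0.90 without library 3 (limma adjusted p = 0.00632).

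A ratio of 2 genes within a library does not depend on how libraries were scaled. The log2 ratio of Erg to Fli1 averaged -2.59 ± 0.20 (SD, n = 3) in Cux1-low;NrasG12D and -2.76 ± 0.08 (SD, n = 2) in Cux1-low libraries, with overlapping values. The difference was 0.17 (2-sided exact permutation test, p = 0.6, adjusted p = 0.6 over 2 pairs), where 10 arrangements of 5 libraries allow no 2-sided p below 0.2. Any shift between the ETS genes was not detectable with these libraries.

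**Figure D2:**
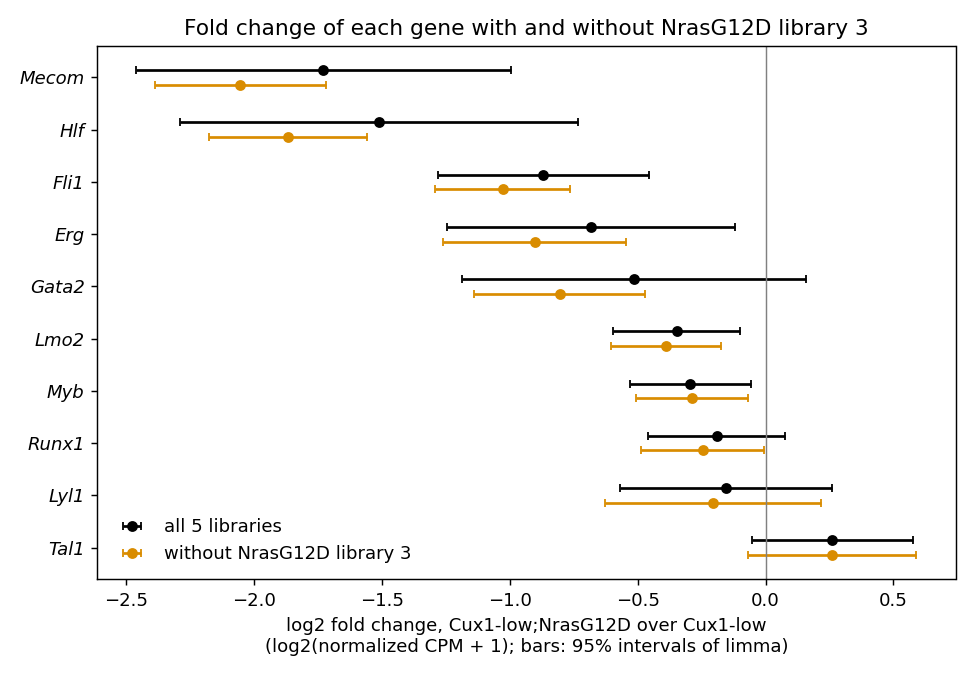
Points are log2 fold changes of Cux1-low;NrasG12D over Cux1-low on the log2(normalized CPM + 1) scale with limma's 95% intervals, for all 5 libraries (black) and without Cux1-low;NrasG12D library 3 (orange). Intervals narrow for Mecom, Hlf, Erg and Gata2 once library 3 is left out, and the Gata2 interval, -1.19 to 0.16 with all libraries, then runs from -1.14 to -0.47.

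Gata2 (chromosome 6, 88193891 to 88207032, plus strand) was the 1 gene of the 10 for which library 3 lay across the Cux1-low mean from libraries 1 and 2. It stood at 343 and 257 normalized CPM in Cux1-low;NrasG12D libraries 1 and 2 and at 546 in library 3, against 519 and 520 in the Cux1-low libraries. Libraries 1 and 2 were below both Cux1-low libraries, library 3 was above both, and the groups overlapped. With all libraries the log2 fold change was -0.51 (SE 0.28, 95% interval -1.19 to 0.16, limma adjusted p = 0.252), and without library 3 Gata2 fell by 0.81 (limma adjusted p = 0.00720). Gata1, which replaces GATA2 at many sites as erythroid and megakaryocytic cells mature, stood at 294, 359 and 204 normalized CPM against 146 and 172 (limma adjusted p = 0.0863). The ratio of Gata1 to Gata2 values, picked with its values in view and not corrected for gene length, was 0.857, 1.40 and 0.374 in Cux1-low;NrasG12D libraries 1, 2 and 3, against 0.280 and 0.330 in Cux1-low libraries. Library 3 lay near the Cux1-low ratios and library 2 was highest.

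The helix-loop-helix genes had small differences. Tal1 (chromosome 4, 115056426 to 115071755, plus strand) stood at 60.2, 76.0 and 67.9 normalized CPM in Cux1-low;NrasG12D libraries 1, 2 and 3, against 57.8 and 54.9 in Cux1-low libraries. All 3 values were above both Cux1-low values, the nearest by a small margin. Its log2 fold change was 0.26 (SE 0.13, 95% interval -0.06 to 0.58, limma adjusted p = 0.222), and it did not pass without library 3 either (limma adjusted p = 0.180). Lyl1 (chromosome 8, 84701457 to 84704715, plus strand) stood at 25.4, 20.7 and 25.6 normalized CPM against 23.6 and 30.04, with overlapping groups. Its log2 fold change was -0.16 (SE 0.17, 95% interval -0.57 to 0.26, limma adjusted p = 0.558), and its sign turned without Cux1-low library 2 (0.01). The log2 ratio of Tal1 to Lyl1 averaged 1.51 ± 0.33 (SD, n = 3) in Cux1-low;NrasG12D and 1.08 ± 0.30 (SD, n = 2) in Cux1-low libraries. That difference of 0.43 did not exceed what rearranged libraries gave (2-sided exact permutation test, p = 0.4, adjusted p = 0.6 over 2 pairs).

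Lmo2 (chromosome 2, 103957986 to 103981878, plus strand), the bridging subunit of the TAL1 complex, was among the abundant members. It stood at 526, 488 and 554 normalized CPM in Cux1-low;NrasG12D libraries 1, 2 and 3, against 676 and 655 in Cux1-low libraries. The groups did not overlap, and library 3 was close to libraries 1 and 2. The log2 fold change was -0.35 (SE 0.11, 95% interval -0.60 to -0.10, limma adjusted p = 0.0933), and Lmo2 fell by 0.39 without library 3 (limma adjusted p = 0.0173). Runx1 (chromosome 16, 92601466 to 92826149, minus strand) stood at 152, 135 and 161 normalized CPM against 176 and 165. Its groups were separated by a gap smaller than the spread within each. The log2 fold change was -0.19 (SE 0.11, 95% interval -0.46 to 0.08, limma adjusted p = 0.277), and it did not pass without library 3 (limma adjusted p = 0.0978). Myb (chromosome 10, 21124935 to 21160984, minus strand) stood at 571, 555 and 555 normalized CPM against 658 and 717. The Cux1-low;NrasG12D values lay close together and below both Cux1-low values. The log2 fold change was -0.29 (SE 0.10, 95% interval -0.53 to -0.06, limma adjusted p = 0.113), and Myb fell without library 3 by about the same amount, 0.29 (limma adjusted p = 0.0479). Exons of Runx1 and Myb share 106 and 559 bases with the opposite-strand genes Gm26626 and Gm26577, which were absent from the deposited table.

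**Figure D3:**
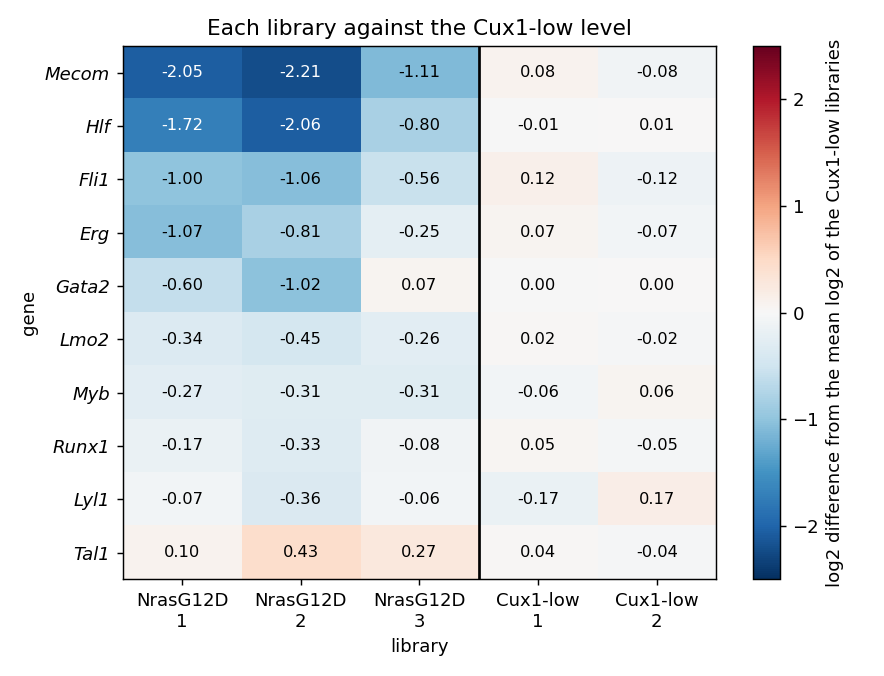
Rows are the 10 genes, ordered by log2 fold change, and columns the 5 libraries, and each cell gives the log2 difference from the mean log2 normalized CPM of the Cux1-low libraries. Library 3 of Cux1-low;NrasG12D lies between the groups for Mecom (-1.11) and Hlf (-0.80), near 0 for Gata2 (0.07) and with libraries 1 and 2 for Myb (-0.31).

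The members thus differed in where library 3 lay. On a log2 scale running from 0 (the Cux1-low mean) to 1 (libraries 1 and 2 of Cux1-low;NrasG12D, averaged), library 3 was at 0.52 for Mecom, 0.43 for Hlf, 0.54 for Fli1 and 0.27 for Erg. It was at -0.09 for Gata2, 0.67 for Lmo2, 1.07 for Myb and 1.02 for Tal1. For Myb and Tal1 library 3 was thus with the other Cux1-low;NrasG12D libraries. The position rests on small differences for Tal1, Myb, Runx1 (0.34) and Lyl1 (0.27). Libraries 1 and 2 averaged 0.26, -0.29, -0.25 and -0.21 for these genes, as log2 differences from the Cux1-low mean. By the root mean square distance between mean-centred log2(normalized CPM + 1) values over the 5 libraries, the nearest pair of the 45 was Runx1 and Lmo2 (0.0811), followed by Lmo2 and Myb (0.0837). Mecom and Hlf ranked 5th (0.138) and the ETS pair Erg and Fli1 7th (0.154). The farthest pair was Tal1 and Mecom (1.05). The distance is not scaled to the size of a gene's differences. Genes with small differences therefore lie close whatever their order of libraries.

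Outside the 10 genes, the gene with the pattern most like Mecom's over the 5 libraries was Tnks1bp1 (distance 0.0684), and then Cx3cl1 (0.0715). For Hlf these were Krt18 (0.0682) and Tead2 (0.0756), and for Fli1 they were Syne2 (0.0234) and Ccser2 (0.0244). Krt18, for example, stood at 31.8, 23.7 and 53.2 normalized CPM in Cux1-low;NrasG12D libraries 1, 2 and 3, against 93.9 and 94.7 in Cux1-low libraries. Syne2 was at 22.6, 21.0 and 30.7, against 50.3 and 43.2. None of these 6 genes passed limma over all genes (adjusted p = 0.0578 to 0.0790). They were chosen for values like those of Mecom, Hlf and Fli1, so similar test results follow from the choice.

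**Figure D4:**
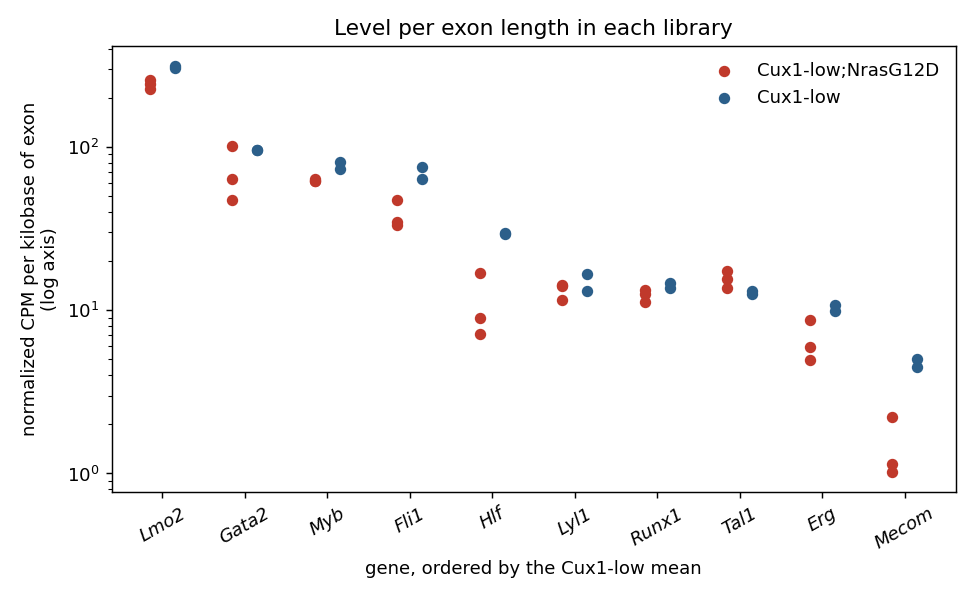
The y axis, which is logarithmic, gives normalized CPM per kilobase of exon in each library, and genes on the x axis are ordered by the Cux1-low mean, with Cux1-low;NrasG12D libraries in red on the left of each gene and Cux1-low libraries in blue. Lmo2 is highest in both groups, Mecom is lowest in both, and Hlf has a lower place in Cux1-low;NrasG12D.

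Levels of different genes were compared per kilobase of the exons annotated in GENCODE M21, which ignores which isoforms were used. In Cux1-low;NrasG12D libraries Lmo2 led with a mean of 242 normalized CPM per kilobase, followed by Gata2 (70.8), Myb (62.7) and Fli1 (38.4). Then came Tal1 (15.5), Lyl1 (13.3), Runx1 (12.4), Hlf (11.0), Erg (6.51) and Mecom (1.46). In Cux1-low libraries the order was Lmo2 (307), Gata2 (96.3), Myb (77.0), Fli1 (69.7), Hlf (29.6), Lyl1 (14.9), Runx1 (14.2), Tal1 (12.9), Erg (10.4) and Mecom (4.75). Single libraries overlapped between the neighbours Gata2 and Myb, Tal1 and Lyl1, Lyl1 and Runx1, Runx1 and Hlf, and Hlf and Erg in Cux1-low;NrasG12D, and between Myb and Fli1 and Lyl1 and Runx1 in Cux1-low. Hlf was above Lyl1, Runx1 and Tal1 in both Cux1-low libraries, and among the Cux1-low;NrasG12D libraries it was above them in library 3 only.

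The proteins these factors work with showed no common direction. Of 17 cofactor genes, 16 were measured, 9 with a negative and 7 with a positive sign, and the median log2 fold change was -0.08. None passed limma with all libraries, 4 of 16 had an unadjusted p under 0.05 (31.4% of all genes did), and the authors' deposited table calls 1 (16.1% of all genes). Without library 3, 4 rose and 1 fell, where 18.0% of all genes rose and 19.4% fell. Zfpm1, which encodes the GATA partner FOG1, stood at 279, 254 and 209 normalized CPM in Cux1-low;NrasG12D libraries 1, 2 and 3, against 156 and 176 in Cux1-low libraries (log2 fold change 0.57, limma adjusted p = 0.0785). Cbfa2t2, a corepressor gene, was at 44.3, 47.9 and 54.6, against 64.9 and 63.1 (log2 fold change -0.39, limma adjusted p = 0.113). Ldb1, Cbfb and Tcf3, picked with their values in view as direct partners of LMO2, RUNX1 and TAL1, had log2 fold changes of -0.26, -0.21 and 0.38 (limma adjusted p = 0.149, 0.457 and 0.129). The ID proteins, which bind E proteins and keep them from pairing with TAL1 and LYL1, were represented by 3 of 4 genes. None of the 3 passed limma, 1 had an unadjusted p under 0.05, and without library 3, 2 rose and 0 fell. Id3 stood at 10.4, 18.4 and 6.02 normalized CPM against 2.35 and 3.08 (log2 fold change 1.65, limma adjusted p = 0.0765), and it is the 1 gene of these that the authors' deposited table calls. Id2 was at 35.6, 37.8 and 17.7, against 23.6 and 21.7, with overlapping groups (limma adjusted p = 0.483).

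Other transcriptional regulators used for stem cells had a median close to that of the 10 genes. Of 30 such genes 28 were measured, 26 with a negative sign, where 50.3% of all genes had one, and the median log2 fold change was -0.47. None passed limma with all libraries, 12 of 28 had an unadjusted p under 0.05 (31.4% of all genes), and 7 were lower and 0 higher in the authors' deposited table (9.14% and 6.97% of all genes). Without library 3, 15 fell and 1 rose, where 19.4% of all genes fell and 18.0% rose. The homeobox gene Nkx2-3 stood at 7.13, 5.48 and 19.1 normalized CPM in Cux1-low;NrasG12D libraries 1, 2 and 3, against 43.6 and 61.2 in Cux1-low libraries (log2 fold change -2.37, limma adjusted p = 0.0579). Prdm16, a relative of Mecom in the PRDM family, was at 4.72, 5.65 and 12.8, against 24.5 and 24.6 (log2 fold change -1.66, limma adjusted p = 0.0684). Of the factors that direct single lineages 19 were measured, 14 with a positive sign, and the median was 0.17. None passed with all libraries, and 3 of 19 had an unadjusted p under 0.05, a smaller share than the 31.4% of all genes. The authors' deposited table calls 5 higher and 0 lower (6.97% and 9.14% of all genes), and without library 3, 8 rose and 1 fell (18.0% and 19.4% of all genes). Klf1, which encodes an erythroid activator, stood at 423, 533 and 270 normalized CPM against 166 and 209 (limma adjusted p = 0.0774).

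Genes described in the field as bound or regulated by the heptad were lower on balance. Of 27 such genes 24 were measured, 19 with a negative sign, and the median log2 fold change was -0.51. None passed limma with all libraries, and 11 of 24 had an unadjusted p under 0.05 (31.4% of all genes). The authors' deposited table calls 7 lower and 2 higher (9.14% and 6.97% of all genes), and without library 3, 16 fell and 3 rose (19.4% and 18.0% of all genes). Kit, the stem cell factor receptor gene, stood at 477, 569 and 816 normalized CPM in Cux1-low;NrasG12D libraries 1, 2 and 3, against 1359 and 1373 in Cux1-low libraries (log2 fold change -1.17, limma adjusted p = 0.0538). KIT protein was used for the sort. Procr, which encodes the stem cell surface protein EPCR, was at 15.6, 8.67 and 34.3, against 72.5 and 81.8 (log2 fold change -2.13, limma adjusted p = 0.0695).

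**Figure D5:**
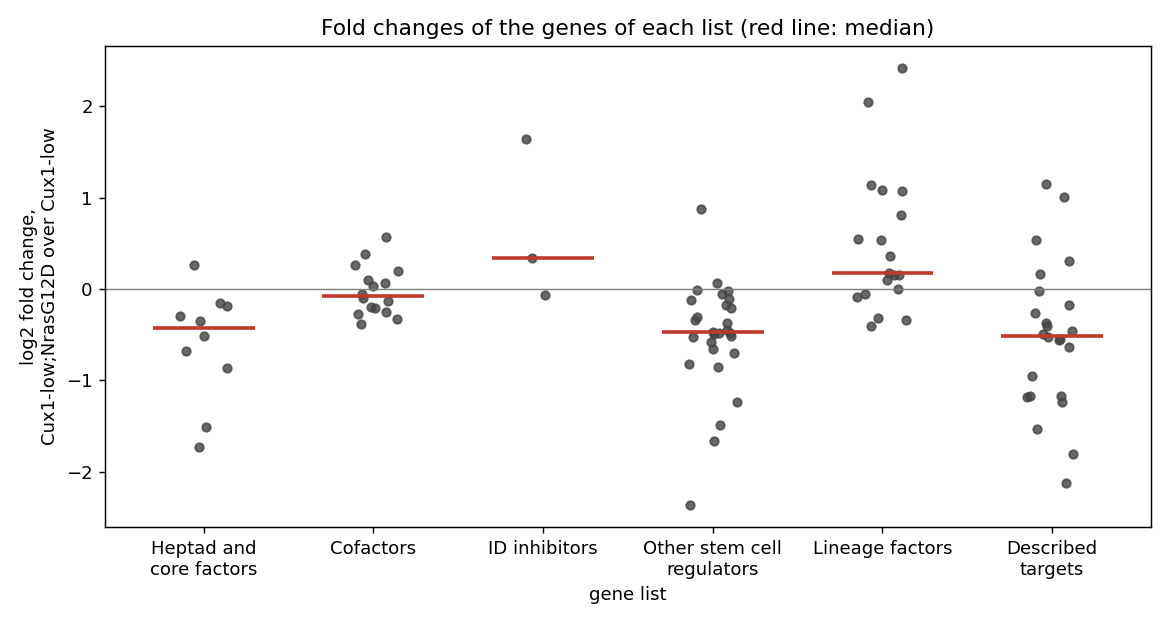
Each point is the log2 fold change of 1 gene, Cux1-low;NrasG12D over Cux1-low with all 5 libraries, for the 10 heptad and core factor genes and 5 further lists on the x axis, with a red line at the list's median. Medians are below 0 for the 10 genes (-0.43), the other stem cell regulators (-0.47) and the described targets (-0.51), and above 0 for the lineage factors (0.17).

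Marker genes of other cells that could lie in or near the sort differed in part between the groups, and their part in the results above was not tested. Endothelial markers (11 of 16 measured) summed to 445 to 592 normalized CPM in Cux1-low;NrasG12D and to 753 to 785 in Cux1-low libraries. Cdh5, Sox17, Sox18, Cldn5 and Mmrn2 were absent from the deposited table. Megakaryocyte and platelet markers (15 of 18) summed to 854 to 1662 and to 1893 to 1915. Erythroid markers (12 of 17) summed to 6202 to 12467 in Cux1-low;NrasG12D and to 4997 to 5473 in Cux1-low libraries. The globin genes of this list were absent from the deposited table. Mast cell, eosinophil and basophil markers (11 of 14) overlapped, at 2182 to 3527 and 2925 to 3910. In that list Prg2 and Epx, which encode eosinophil granule proteins, fell (log2 fold changes -1.28 and -1.11, limma adjusted p = 0.0430 for both). They were the 2 genes of all lists to pass, out of 150 measured beside the 10 genes, where 1.13% of all genes passed. Without Cux1-low;NrasG12D library 1, Cux1-low library 1 or Cux1-low library 2, neither of them passed, and without Cux1-low;NrasG12D library 2 Prg2 alone passed. B cell markers (9 of 13) summed to 279, 572 and 64.8 in Cux1-low;NrasG12D libraries 1, 2 and 3, against 61.5 and 85.3 in Cux1-low libraries, so library 3 was at the Cux1-low level. Granulocyte and monocyte markers (11 of 16) summed to 8735 to 20197 and 8064 to 11284, and T and NK cell markers (3 of 12) to 206 to 329 and 228 to 249. Such sums follow the most abundant genes of a list. Mpo alone was at 16346 normalized CPM in Cux1-low;NrasG12D library 1, where the granulocyte and monocyte sum was 20197. Of the 11 genes of that list, 8 had a positive and 3 a negative sign. Of the sort gate genes, 10 of 13 were measured, and they summed to 2900 to 3597 and 4311 to 4408. In these marker and gate lists no other gene passed with all libraries. An unadjusted p under 0.05 was seen for 9 of 11 endothelial, 6 of 15 megakaryocyte, 9 of 12 erythroid and 4 of 11 mast cell genes. It was seen for 2 of 11 granulocyte, 4 of 9 B cell, 0 of 3 T and NK cell and 6 of 10 sort gate genes. Over all genes the share was 31.4%. Without library 3, 7 endothelial genes fell and 1 rose, 8 megakaryocyte genes fell, 11 erythroid and all 9 B cell genes rose, and 3 mast cell genes fell and 1 rose. In the same fit 6 granulocyte and monocyte genes rose and 2 fell, 1 T and NK cell gene rose, and 6 sort gate genes fell and 2 rose. These counts stand against 18.0% of all genes that rose and 19.4% that fell in that fit.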

How the data were processed

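RNA had been isolated with Trizol and polyA libraries made with an Illumina TruSeq v2 kit, per the labels' protocols. Per the submitters' processing notes, the tools were TopHat, HTSeq and edgeR and the builds hg19 and mm10, with no version or role given. The deposited signal values are headed CPM, per the file headers, and are called normalized CPM because the columns sum to 971746 to 1026780, not to 1000000. Every listed gene was above 1 in at least 3 of the 5 libraries, so genes above 1 only in Cux1-low libraries are not listed. The authors' deposited table also holds, for each gene, the authors' own test, as log2 fold change, log2 mean level, test score and raw and adjusted p-value.

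From these values, log2(normalized CPM + 1) was fitted over all 11352 genes with limma 3.58.1 (trended variance, R 4.3.3), comparing 3 Cux1-low;NrasG12D libraries with 2 of Cux1-low and using neither block nor filter. Fold changes on this scale understate the change of low genes. Adjustment was by Benjamini-Hochberg over all genes, with a threshold of 0.05, and the script was tested on simulated data. The value of 1 read was 0.0481 to 0.0608, read from the step between low values, and no test was run on reads. The 10 genes and the 13 further lists were chosen with earlier results of these data known. Beside the 10 genes, up to 4 genes past the threshold were named per list, or the 2 with the smallest p, and any other gene is said to have been picked with its values in view. Alternatives were other pseudocounts, a filter, 2 rescalings, robust variance, a replicate block and leaving out each library. Ratios used Python 3.11.15 with scipy 1.17.1. Gene coordinates and exon lengths are those of GENCODE M21 on mm10.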

Additional observations from a re-analysis of the deposited data

How the results depend on the processing

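Of 12 alternative fits, 9 called 0 of the 10 genes, as with the settings used. Rescaling every library to the same total called 1 (Mecom), the replicate block called 6, and leaving out single libraries gave 0 to 7, with 7 only without Cux1-low;NrasG12D library 3. Over all genes, 1.13% passed with the settings used, 1.88% after rescaling to the same total, 36.7% with the block and 0.0264% to 37.4% with a library left out. Of the 150 other list genes measured, 2 passed with the settings used, 4 after rescaling to the same total, 97 with the replicate block, and 0 to 88 with a library left out, with 88 without Cux1-low;NrasG12D library 3, to be read against the same shares. The sign was the same in all 12 alternatives for each of the 10 genes except Lyl1, which was at -0.32 without Cux1-low library 1 and reversed to 0.0102 without Cux1-low library 2. Over these alternatives the adjusted p of Mecom ran from 1.54e-08 to 0.400, of Hlf from 2.25e-09 to 0.400 and of Fli1 from 3.63e-06 to 0.400. The difference in the log2 ratio of Tal1 to Lyl1 was 0.22 to 0.64 with a library left out, and that of Erg to Fli1 0.10 to 0.28. The median log2 fold change of all genes moved to -0.06 at most under rescaling.

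The groups share replicate numbers 1 and 2, but the deviations of same-numbered libraries had correlations of -0.19 and -0.00354 across genes, so the numbers do not show pairs. In the block fit library 3 of Cux1-low;NrasG12D has a level of its own, which leaves the same 4 libraries as the fit without it. For Runx1, Lyl1 and Tal1 no difference was detectable with 3 and 2 libraries, with or without library 3.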
